A study of Rattus norvegicus with 8 samples.

Results

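The receptors for EGF and HGF, and the ligands that bind them, were described in hepatocytes of rat livers in which retrorsine, a plant toxin that impairs hepatocyte proliferation, had been followed by partial hepatectomy (PH). The members were the receptor genes Egfr, Erbb2, Erbb3 and Met and the ligand genes Areg, Ereg, Hbegf, Tgfa, Btc and Hgf, 10 genes chosen by name. They were read by every non-control probe of the array that carried one of these names, 16 of 45598 distinct probes, and each gene had at least 1. Clusters of small hepatocyte-like progenitor cells (SHPCs) were cut by laser microdissection (LMD) from 3 control samples without transplantation and from 3 samples of livers given bone marrow-derived mesenchymal cells (BM-MCs), and mature hepatocytes (MHs) were cut for 2 samples from the recipient control livers. All groups therefore shared retrorsine and PH. Cells were chosen by their appearance in frozen sections stained with hematoxylin. The labels give the strain as F344, DPPIV+, whereas the methods give the recipients as DPPIV-negative, and this difference does not touch the groups. No source says which animal a sample came from. The p-values are therefore taken over samples rather than animals, and they may be too small where samples shared an animal.

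EGFR is the receptor for EGF, TGF-alpha, amphiregulin, betacellulin, epiregulin and heparin-binding EGF. ERBB2 has no known ligand of its own and signals as the partner of other receptors of the family, and ERBB3 binds neuregulins and has little kinase activity of its own. MET is the receptor for HGF, which in the liver is made mainly by stellate and sinusoidal endothelial cells, while hepatocytes carry EGFR and MET. Both receptors start the RAS and ERK cascade and are known for driving hepatocytes into the cell cycle after PH.

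Levels are log2 processed signals of the scanner with the array's own 75th percentile subtracted, so that 0 is the signal of a fairly bright probe and each unit is a factor of 2. They were compared between samples for 1 probe at a time, because signals of different probes are not on a common scale. Well-above-background spots made up 57.0% to 61.5% of an array, and 0 were saturated. Background marks for control SHPC 2 cover 19479 of 58717 spots, so its probes outside these spots have a level without a mark. The 8 arrays lay on 1 slide. The MH samples and control SHPC 1 and 2 took set 1 of its arrays, and control SHPC 3 and the 3 BM-MC samples took set 2, so the slide set nearly separates livers with and without BM-MCs. For 4 of the 13 tested member probes, the brightest and the NM_031507 probe of Egfr and those of Erbb3 and Hbegf, all arrays of set 2 were above all of set 1, as for 4.89% of all probes, and for 0 they were below (3.61% of all probes).

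The genes lie, in the assembly GRCr8, on chromosome 14 from 95378626 to 95551358 (Egfr), on chromosome 10 from 83907491 to 83931365 (Erbb2), on chromosome 7 from 1579079 to 1600379 (Erbb3) and on chromosome 4 from 46756823 to 46864041 (Met). Hgf lies on chromosome 4 from 19628902 to 19700467, Tgfa on chromosome 4 from 120175549 to 120258342 and Hbegf on chromosome 18 from 28380337 to 28390220. Btc, Areg and Ereg are neighbours, together with Epgn, the gene of a further EGF-family ligand, within 376 kb of chromosome 14 from 16992668 to 17369000. Of the 250 bases upstream of the start of each gene in RefSeq's GRCr8 annotation, given for 8 members, those of Egfr and Areg are shown. Egfr is the member with the largest difference below, and Areg is the only member whose window held the cAMP response element. The windows are chr14:95378376-95378625 on the plus strand and chr14:17265642-17265891 on the minus strand. Capitals mark the GC box GGGCGG, the cAMP response element TGACGTCA and TATAAA, each searched on both strands.

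Egfr: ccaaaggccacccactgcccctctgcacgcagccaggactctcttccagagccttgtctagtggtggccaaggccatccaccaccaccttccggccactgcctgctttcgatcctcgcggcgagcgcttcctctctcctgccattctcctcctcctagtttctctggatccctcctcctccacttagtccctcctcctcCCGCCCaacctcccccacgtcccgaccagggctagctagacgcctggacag

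Areg: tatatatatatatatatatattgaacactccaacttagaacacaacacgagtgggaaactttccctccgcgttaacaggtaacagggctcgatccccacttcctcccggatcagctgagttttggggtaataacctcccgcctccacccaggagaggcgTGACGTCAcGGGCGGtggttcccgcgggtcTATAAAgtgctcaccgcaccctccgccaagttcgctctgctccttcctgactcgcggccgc

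The GC box was in the windows of 5 of the 8 members (Areg, Btc, Egfr, Erbb2 and Tgfa) and in 30.5% of all 33469 windows of this length. The cAMP response element was in 1.59% of all windows and TATAAA in 12.9%, and among the members only Areg held either. The AP-1 element TGACTCA, found in 4.05% of all windows, was in none of the 8. The marked elements do not overlap each other. These matches describe the letters in the windows.

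Of the 16 member probes, 13 probes of 7 genes passed the filter on dim signals (a mark of well above background on 3 or more of the 7 fully marked arrays) and were tested, among 23111 probes in all. Areg, Ereg and Btc did not pass this filter. None of the 13 member probes passed limma's adjusted threshold of 0.05 in any of the 3 comparisons. Over all probes tested, 0.0216% were called between BM-MC and control SHPCs, 1.13% between MHs and control SHPCs, and 0.338% between BM-MC SHPCs and MHs. At an unadjusted p under 0.05, 5 of the 13 member probes were higher and 0 lower with BM-MCs than in control SHPCs, where 10.7% and 5.92% of all probes were. Against control SHPCs, 2 member probes were higher and 1 was lower in MHs by that rule (background 11% and 8.21%), and 4 were higher and 0 lower in BM-MC SHPCs than in MHs (background 7.33% and 5.95%). Probes of 1 gene are not independent, and the 5 probes higher with BM-MCs than in controls belonged to Egfr and Hgf alone. The 4 higher than in MHs were 2 Egfr probes, Erbb3 and Hbegf. Of these, all but 1 Egfr probe were higher on all arrays of slide set 2 than on those of set 1.

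**Figure D1:**
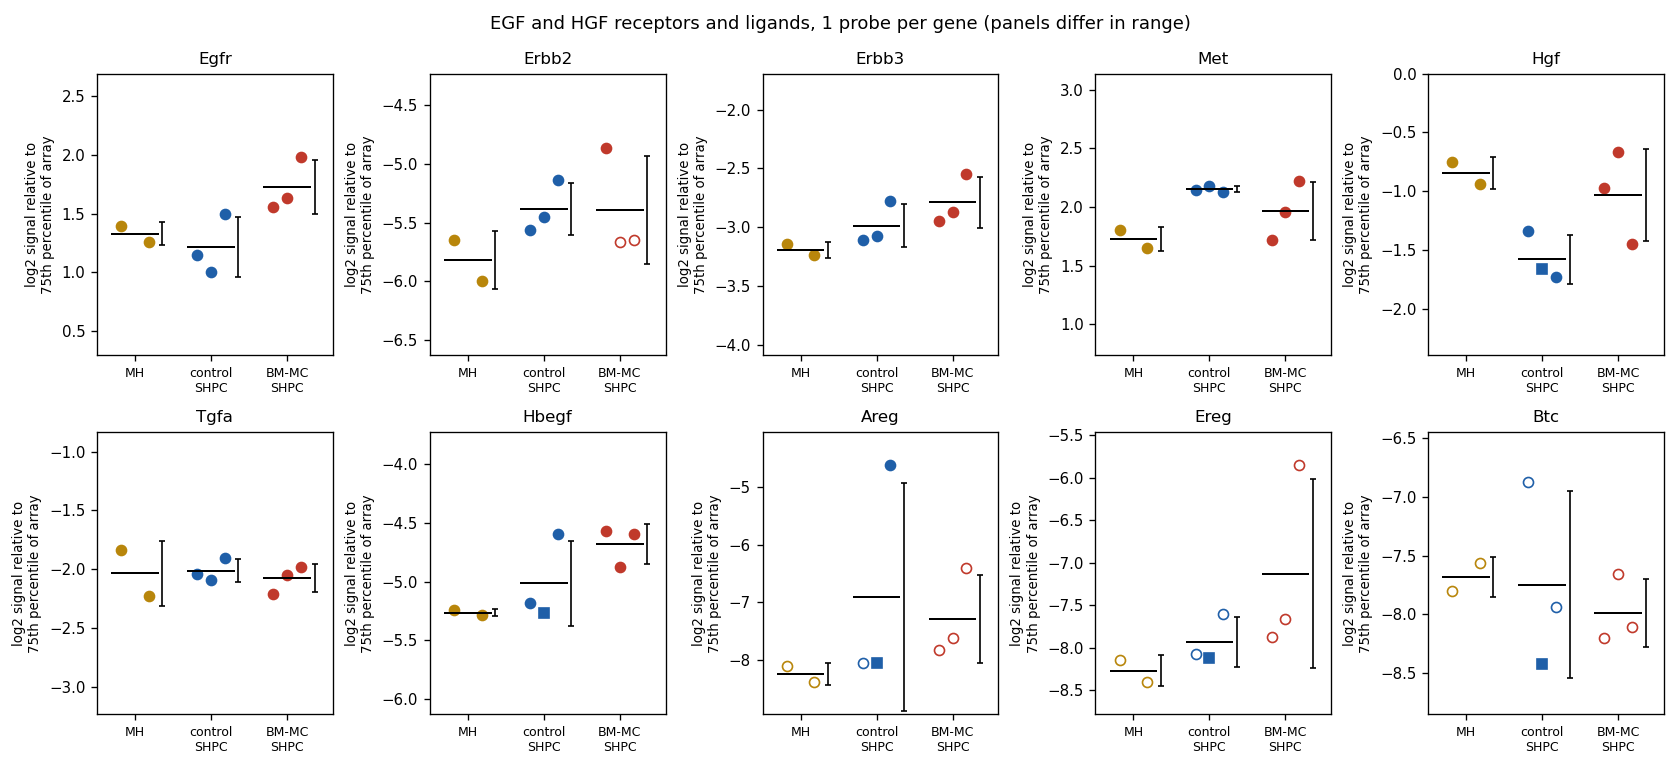
Level of each member in every sample (y axis, log2 signal relative to the array's 75th percentile) for MHs, control SHPCs and BM-MC SHPCs, by the brightest tested probe or, for Areg, Ereg and Btc, the single untested probe. Filled circles were well above background, open circles were not, squares are control SHPC 2 where it has no mark, lines are means and bars are SDs; the 3 BM-MC samples sit above all controls for Egfr, and Areg has 1 filled circle, control SHPC 3 at -4.61.

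Egfr was read by 3 probes, all of which were higher in every BM-MC sample than in every control SHPC. The brightest, designed on XM_008770416, stood at 1.15, 1.0 and 1.50 in control SHPC 1 to 3, at 1.55, 1.63 and 1.98 with BM-MCs and at 1.40 and 1.26 in the MHs. Control SHPC 3 was close below the lowest BM-MC sample, and the MHs lay within the range of the controls. The group means were 1.22 ± 0.257 (SD, n = 3) for controls, 1.72 ± 0.229 (SD, n = 3) for BM-MC SHPCs and 1.33 ± 0.0965 (SD, n = 2) for MHs. The difference of 0.51 (standard error 0.18, 95% confidence interval 0.06 to 0.95), or 1.42-fold, had an adjusted p = 0.27 from limma. The probe designed on NM_031507 gave 0.84, 0.65 and 1.17 in controls, 1.31, 1.42 and 1.70 with BM-MCs and 0.95 and 1.06 in MHs, with a difference of 0.59 (adjusted p = 0.22 from limma). By both probes the BM-MC samples were highest, MHs and control SHPCs overlapped, and control SHPC 3 was above all arrays of slide set 1, as the BM-MC samples were. Against MHs, the BM-MC samples were higher by 0.39 and 0.47 (adjusted p = 0.42 and 0.36 from limma), without overlap, and MHs differed from controls by 0.11 with either probe (adjusted p = 0.78 and 0.77 from limma). Within slide set 2, where the BM-MC samples can be compared with control SHPC 3 alone, the differences from controls were 0.22 and 0.30. The differences from MHs were -0.033 and 0.045 in the fit with the slide set as a block.

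The third Egfr probe, designed on the predicted transcript variant XM_008770418, had the largest difference among the member probes. Its levels were -4.70, -5.24 and -5.08 in control SHPCs and -2.65, -2.22 and -2.99 with BM-MCs. Before scaling, the control signals were 58.8, 46.1 and 37.1, against 278, 307 and 172 with BM-MCs. The controls with a mark were well above background, but their signals were near those of Erbb2, described below as close to background. The fold therefore rests on a dim control group. The MHs stood at -6.23 and -3.86, the lower of them not well above background. The BM-MC samples thus lay above all 5 other samples, and the MHs lay on both sides of the controls. The difference between BM-MC and control SHPCs was 2.39 (standard error 0.24, 95% confidence interval 1.82 to 2.96), or 5.23-fold, with an unadjusted p = 3.87e-05 and an adjusted p = 0.068 from limma. It was 2.46 with the slide set as a block (adjusted p = 0.14 from limma), between 2.19 and 2.57 with each sample left out, and 1.33 when the background was corrected anew on the 7 complete arrays (adjusted p = 0.28 from limma). It passed the threshold without control SHPC 3, where 490 probes in all were called higher (2.35, adjusted p = 0.031 from limma). In that fit all controls were in slide set 1 and all BM-MC samples in set 2, so group and set could not be told apart. The variant probe also passed with limma's intensity trend, where 29 probes were called higher (adjusted p = 0.020 from limma). Against MHs the difference was 2.42 (standard error 0.61, adjusted p = 0.23 from limma). It was 1.24 without MH 1, the dim sample, and 3.61 without MH 2.

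In the array's annotation the variant probe lies 33.1 kb from the brightest probe and 27.7 kb from the NM_031507 probe, whose distance from each other is 5.4 kb. The build of these positions could not be settled from the array's header, so only distances are given. RefSeq's GRCr8 table lists 2 transcripts for Egfr, and XM_008770418 is not among them. Which transcript the signal came from was not tested.

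Markers of granulocytes were followed in the same samples. The summed signal of 7 granulocyte markers, in units of the array's 75th percentile, was 1.18 to 1.59 in control SHPCs, 0.392 to 0.507 with BM-MCs and 0.414 and 1.53 in MHs, with 4 of the 7 dim on every array with complete marks. The other 3 were tested, and all 3 were lower with BM-MCs than in controls without overlap (median -1.46), but 0 passed the adjusted threshold of limma. In bulk samples, fewer cells of a type and less RNA per cell cannot be told apart. The part of these cells in the Egfr values was not tested.

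**Figure D2:**
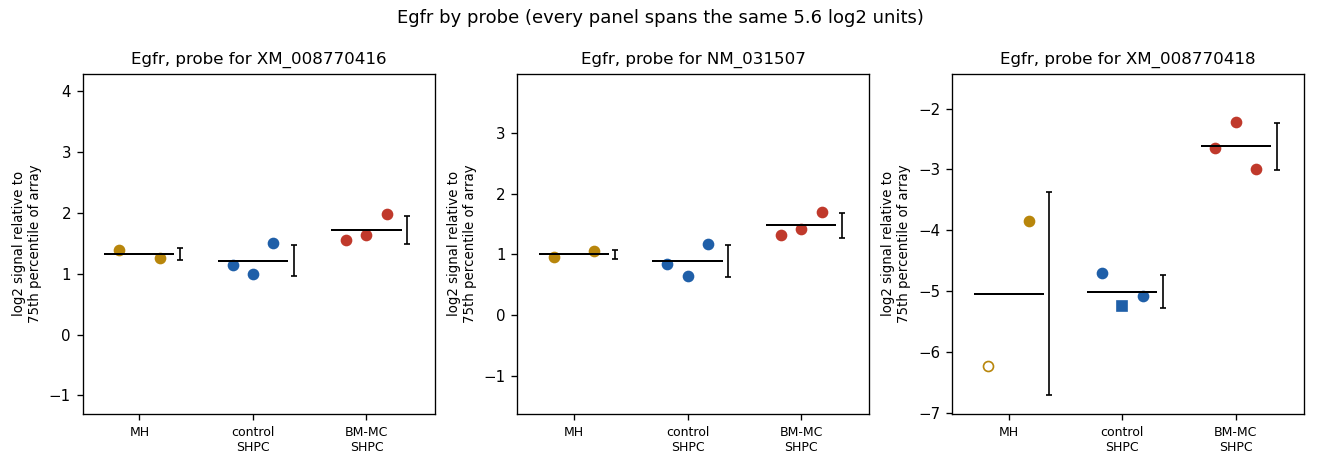
The 3 Egfr probes in every sample (y axis, log2 signal relative to the array's 75th percentile; every panel spans the same height), with means as lines, SDs as bars, an open circle for the dim MH sample and a square for control SHPC 2 without a mark. BM-MC samples lie above all controls in each panel, by 0.51, 0.59 and 2.39 on average from left to right.

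Erbb3, the receptor that pairs with ERBB2, stood at -3.11, -3.08 and -2.78 in control SHPCs, at -2.95, -2.87 and -2.54 with BM-MCs and at -3.15 and -3.24 in MHs. The order of the means was BM-MC SHPCs, control SHPCs, MHs, and the SHPC groups overlapped. BM-MC SHPCs and MHs did not overlap and differed by 0.40 (95% confidence interval 0.01 to 0.80, adjusted p = 0.37 from limma), and by 0.087 in the fit with the slide set as a block. BM-MC SHPCs differed from controls by 0.20 (95% confidence interval -0.19 to 0.59, adjusted p = 0.55 from limma), and by -0.011 with that block. All arrays of slide set 2 were above all of set 1. Erbb2 was close to background, and BM-MC 2 and 3 were not well above it. Its levels were -5.57, -5.45 and -5.14 in controls, -4.86, -5.67 and -5.64 with BM-MCs and -5.64 and -6.00 in MHs. The BM-MC samples spanned the range of the controls (difference from controls -0.0075, 95% confidence interval -0.61 to 0.60), and MHs lay below all controls (difference -0.44, adjusted p = 0.41 from limma). The latter difference was -0.050 when the background was corrected anew and ran from -0.61 to -0.26 with each sample left out.

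Met, the HGF receptor, was lower in MHs than in all control SHPCs by its brightest probe. The controls stood at 2.15, 2.18 and 2.12, the BM-MC samples at 1.72, 1.96 and 2.22 and the MHs at 1.80 and 1.65. Controls were close together, whereas the BM-MC samples spread from within the MHs to above the highest control. The difference of MHs from controls was -0.42 (standard error 0.16, 95% confidence interval -0.80 to -0.05, adjusted p = 0.23 from limma) and stayed at -0.44 with the slide set as a block. Over all alternatives it ran from -0.50 to -0.096, the latter as the median over both Met probes. BM-MC SHPCs lay between for Met, at -0.18 from controls (adjusted p = 0.55 from limma) and 0.24 from MHs (adjusted p = 0.54 from limma). The summed signal of 8 biliary markers was likewise lower in MHs, at 0.296 and 0.367, than in controls, at 0.440 to 0.476, and was 0.435 to 0.558 with BM-MCs, with 2 of the 8 dim on every array with complete marks. Of the 5 biliary markers tested, 5 were lower in MHs than in controls (median -0.95) and 4 were lower with BM-MCs (median -0.43), where Sox9, a transcription factor of duct cells, alone gave a higher value (difference 0.62, adjusted p = 0.36 from limma), or 0.30 in the blocked fit. The part of biliary cells in the receptor values was not tested.

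The other Met probe spans a splice junction in the kinase part of the coding sequence. It is shown because its direction differed from the brightest probe's, and the capitals mark the codons that open the activation loop of the kinase.

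Met: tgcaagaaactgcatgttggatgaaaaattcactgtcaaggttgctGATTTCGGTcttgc

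This probe was well above background on 3 of the 7 arrays with complete marks, 1 in each group. It gave a difference of 0.23 for MHs against controls (95% confidence interval -0.63 to 1.09) and 0.077 for BM-MC against control SHPCs (95% confidence interval -0.44 to 0.59). Both intervals hold the value of the brightest probe.

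Hgf, the ligand of MET, was lowest in control SHPCs by both of its probes. The brightest gave -1.34, -1.67 and -1.73 in controls, -0.98, -0.67 and -1.45 with BM-MCs and -0.75 and -0.94 in MHs. BM-MC 3 lay within the controls, and the other BM-MC samples lay around the MHs. MHs were higher than controls by 0.73 (standard error 0.24, 95% confidence interval 0.18 to 1.29), or 1.66-fold, without overlap (adjusted p = 0.18 from limma). BM-MC SHPCs were higher by 0.55 with overlap (adjusted p = 0.30 from limma). The probe designed on NM_017017 gave -2.45, -2.61 and -2.84 in controls, -2.03, -1.53 and -2.28 with BM-MCs and -1.87 and -1.92 in MHs. Here every BM-MC sample and every MH sample exceeded every control, by 0.69 (adjusted p = 0.24 from limma) and 0.74 (adjusted p = 0.16 from limma). BM-MC SHPCs and MHs did not differ beyond their spread by either probe, with differences of -0.18 (95% confidence interval -0.74 to 0.37) and -0.055 (95% confidence interval -0.59 to 0.48). With the slide set as a block the differences from controls remained above 0, at 0.70 and 0.90 for BM-MC SHPCs and at 0.66 and 0.64 for MHs.

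The summed signals of markers of 3 kinds of cell that lie between hepatocytes were highest on average in MHs and lowest in control SHPCs, as Hgf was. The summed signal of 12 stellate cell and fibroblast markers was 6.55 and 7.02 in MHs, 5.25 to 5.73 in control SHPCs and 4.99 to 7.68 with BM-MCs, with 2 of the 12 dim on every array with complete marks. That of 8 sinusoidal endothelial markers was 15.5 and 18.7 in MHs, 13.6 to 15.6 in controls and 15.5 to 17.6 with BM-MCs, and that of 10 Kupffer cell markers 91.9 and 96.6, 47.3 to 68.7 and 59.0 to 83.5. BM-MC 3, the lowest BM-MC sample for Hgf, was the lowest of its group in all 3 sums. The stellate cell markers did not move together, since between MHs and controls 5 of the 10 tested were higher and 5 lower, with a median of -0.021. The pericyte gene Rgs5 was the 1 of them that passed the adjusted threshold, at 1.09 higher in MHs (adjusted p = 0.034 from limma). Blocked on slide set, the value was 1.06 and did not pass (adjusted p = 0.069 from limma). The others without overlap did not pass in either fit. They were Reln and Lrat, with differences of 1.47 and 0.63 (limma's adjusted p = 0.098 and 0.22), and Col1a1 and Pdgfrb, which gave -1.11 and -0.47 (limma's adjusted p = 0.16 for both). Of the 8 sinusoidal endothelial markers 7 were higher in MHs than in controls, and of the 10 Kupffer cell markers 9, with medians of 0.25 and 0.60. The 10 hepatocyte markers summed to between 761 and 962 in all samples, with the 3 groups overlapping. The part of these cells in the Hgf values was not tested.

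**Figure D3:**
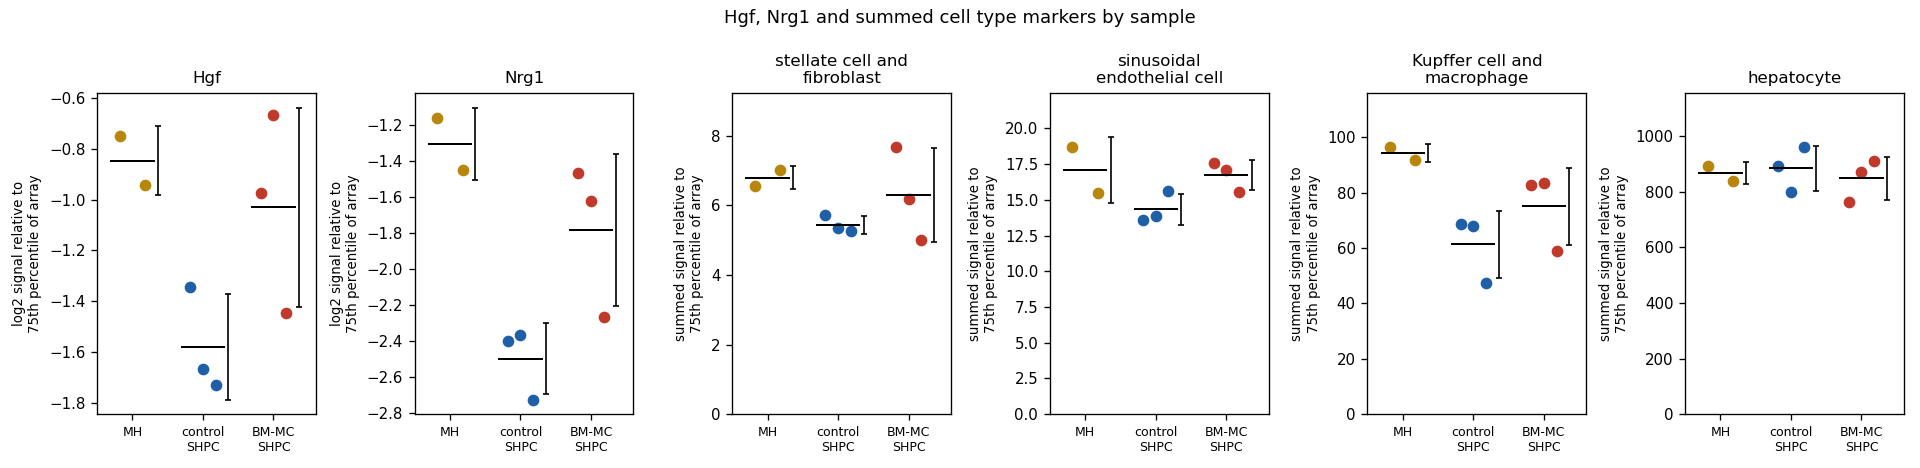
Hgf by its brightest probe and Nrg1 (y axis, log2 signal relative to the array's 75th percentile) beside the summed signal of marker lists for 4 cell types (y axis from 0, in units of the 75th percentile), by sample, with means as lines and SDs as bars. Hgf, Nrg1 and the Kupffer cell sum were all lowest on average in control SHPCs, and the hepatocyte sums overlapped between groups at 761 to 962.

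Among the ligands of EGFR, Tgfa and Hbegf were measured in all groups. The brightest of the 3 Tgfa probes stood at -2.05, -2.09 and -1.90 in control SHPCs, at -2.21, -2.05 and -1.98 with BM-MCs and at -1.84 and -2.23 in MHs. The MHs spanned both other groups, and the difference between SHPC groups was -0.066 (95% confidence interval -0.35 to 0.22). The other Tgfa probes gave -0.24 and -0.53 for the same comparison (adjusted p = 0.50 and 0.38 from limma), with overlap. The dimmest Tgfa probe was lower in all BM-MC samples, at -4.99 to -5.80, than in the MHs, at -4.77 and -4.94, with a difference of -0.45 (adjusted p = 0.52 from limma), or -1.06 with the block.

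Hbegf, whose membrane-bound precursor is cut to release the ligand, stood at -5.18, -5.26 and -4.60 in control SHPCs, at -4.57, -4.87 and -4.59 with BM-MCs and at -5.24 and -5.29 in MHs. All 4 arrays of slide set 2, control SHPC 3 included, were above all 4 of set 1. BM-MC SHPCs differed from controls by 0.33 (adjusted p = 0.44 from limma) and from MHs by 0.59, without overlap (adjusted p = 0.34 from limma). With the slide set as a block these differences were -0.082 and -0.039. The MHs were all in set 1 and the BM-MC samples all in set 2, so the value against MHs with the block rests on the controls of both sets.

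Areg, Ereg and Btc were at or near background. Areg was well above it on 1 array, control SHPC 3 at -4.61, against -8.04 in each of the other controls, -7.83, -7.62 and -6.40 with BM-MCs and -8.10 and -8.38 in MHs. Ereg was dim on all arrays with marks, and its highest sample was BM-MC 3 at -5.85, the others lying from -8.40 to -7.60. Btc, from -8.43 to -6.87, was likewise dim on all arrays with marks. No fold is given for these genes, since a bound from the dim signals was under 1 for Areg and both groups were dim for Ereg and Btc.

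**Figure D4:**
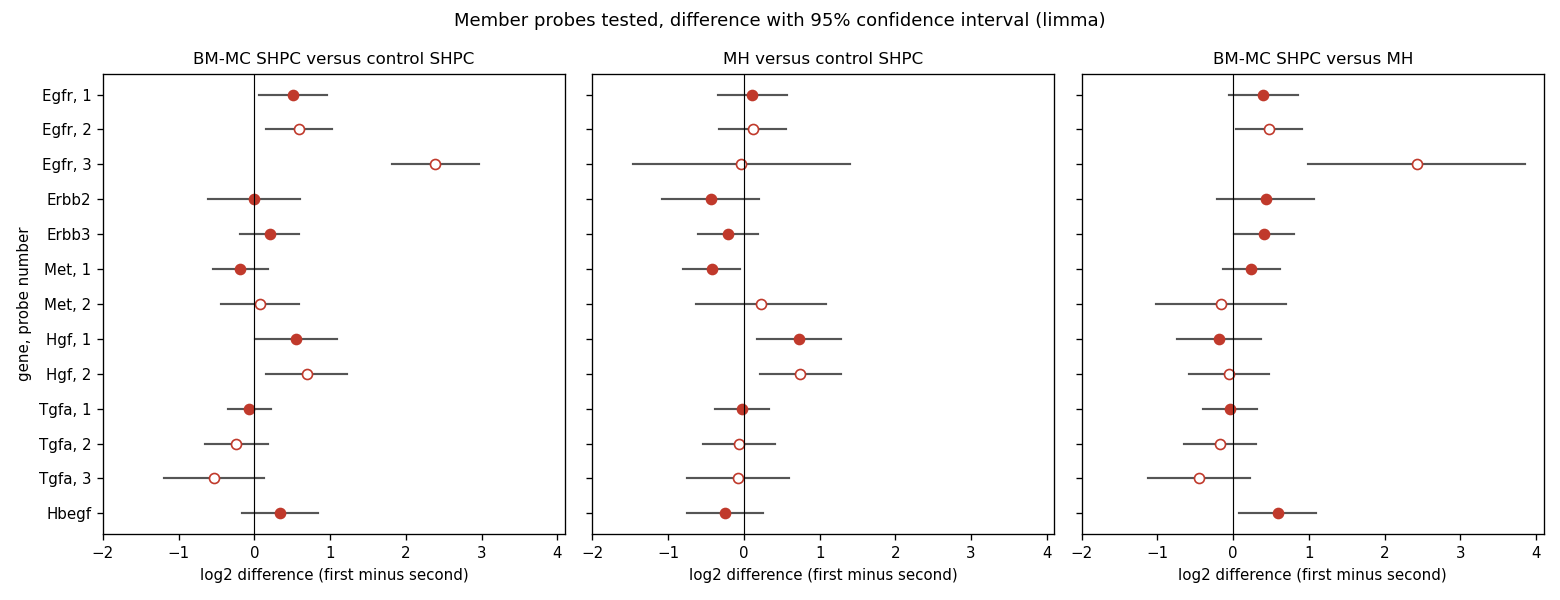
Log2 difference (x axis, first group minus second) of the 13 tested member probes in the 3 comparisons, with 95% confidence intervals from limma as lines; filled circles are the brightest probe of each gene and open circles its other probes, numbered from the brightest. The variant Egfr probe lies at 2.39 and 2.42 in the comparisons with BM-MC SHPCs, and Hgf lies above 0 in both comparisons with control SHPCs.

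The other receptors and ligands of the axis were followed as a list of 9 genes, of which 5 were tested. Erbb4, Epgn and Mst1r, the receptor for the HGF-like protein MSP, had probes that did not pass the filter. None of the 5 passed the adjusted threshold in any comparison. Nrg1, a neuregulin that binds ERBB3 and ERBB4, stood at -2.40, -2.37 and -2.73 in control SHPCs, -1.47, -1.62 and -2.26 with BM-MCs and -1.16 and -1.45 in MHs. The 3 groups did not overlap, with MHs highest and controls lowest, the order also seen for Hgf. The differences of Nrg1 from controls were 1.19 in MHs (adjusted p = 0.084 from limma) and 0.71 with BM-MCs (adjusted p = 0.24 from limma), and that between BM-MC SHPCs and MHs was -0.48 (adjusted p = 0.44 from limma). With the slide set as a block the differences from controls were 1.08 in MHs and 0.94 with BM-MCs, closer together than without it. Egf was at -3.46, -3.37 and -2.39 in controls, -2.60, -2.59 and -2.43 with BM-MCs and -3.21 and -3.86 in MHs. As for Hbegf, all arrays of slide set 2 were above those of set 1. BM-MC SHPCs were higher for Egf than MHs by 1.0 (adjusted p = 0.31 from limma) and than controls by 0.53 (adjusted p = 0.39 from limma). A fit with slide set as a term gave -0.022 and -0.15. The median difference over the list was 0.18 for BM-MC against control SHPCs, where that over all probes was 0.018.

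Of 14 proteases and inhibitors that release or activate the ligands, all were tested and 0 passed in any comparison. Spint1, an inhibitor of the proteases that activate HGF, was lower than in all controls both with BM-MCs (difference -0.78, adjusted p = 0.24 from limma) and in MHs (difference -1.11, adjusted p = 0.15 from limma). Plat, tissue plasminogen activator, was 0.69 higher in MHs than in controls (adjusted p = 0.13 from limma), and Adam10, a sheddase, differed by -0.40 between BM-MC and control SHPCs (adjusted p = 0.30 from limma). Against MHs, BM-MC SHPCs differed by 1.28 for Serpina5, a serpin, and by 0.44 for Klkb1, plasma prekallikrein (adjusted p = 0.31 and 0.38 from limma). All arrays of slide set 2 were above those of set 1 for Serpina5, and its difference was 0.27 with the slide set as a block. The list's medians were 0.11 for BM-MC and 0.033 for MHs against controls, and -0.0027 for BM-MC SHPCs against MHs.

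Negative regulators and the receptors' turnover were represented by 15 tested genes, and 0 passed. Cblb, a ubiquitin ligase of activated receptors, was higher in all BM-MC samples, at -2.31 to -2.43, than in all controls, at -2.73 to -2.94 (difference 0.46, adjusted p = 0.17 from limma), and differed by 0.32 from MHs (adjusted p = 0.41 from limma). Its relative Cbl differed by 0.28 from controls with BM-MCs (adjusted p = 0.35 from limma) and by 0.49 in MHs (adjusted p = 0.15 from limma). Sh3kbp1, an adaptor of CBL, differed by 0.38 between MHs and controls (adjusted p = 0.16 from limma), and Socs5 by -0.51 between BM-MC SHPCs and MHs (adjusted p = 0.24 from limma). For Socs5 the arrays of slide set 2 were all below those of set 1, and the difference was -0.29 with that block. The medians of these 15 genes were 0.070 for BM-MC SHPCs and 0.19 for MHs against controls.

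Of 14 adaptors at the receptors, 0 passed. Gab1, the docking protein shared by MET and EGFR, stood at -0.63 to -0.86 in controls, -0.26 to -0.47 with BM-MCs and -0.28 and -0.18 in MHs. Both other groups were above all controls, by 0.36 (adjusted p = 0.25 from limma) and 0.51 (adjusted p = 0.13 from limma). Src differed by 0.53 between BM-MC and control SHPCs (adjusted p = 0.28 from limma). Ptpn11, the phosphatase SHP2, was higher in MHs than in controls by 0.34 (adjusted p = 0.18 from limma) and gave -0.39 between BM-MC SHPCs and MHs, where Nck1 gave -0.37 (adjusted p = 0.27 and 0.28 from limma). Both genes were lower on all arrays of slide set 2 than on those of set 1, as was Pik3r1 below, and the block gave -0.31 and -0.25. In the RAS, ERK and PI3K cascade, 17 genes were tested and 0 passed, with medians of -0.012 and 0.11 against controls for BM-MC SHPCs and MHs. Akt1 and Braf gave -0.50 and 0.24 between BM-MC and control SHPCs (adjusted p = 0.31 and 0.34 from limma). The PI3K subunits Pik3r1 and Pik3cb gave 0.52 and 0.37 between MHs and controls (adjusted p = 0.20 and 0.15 from limma) and -0.84 and -0.32 between BM-MC SHPCs and MHs (adjusted p = 0.18 and 0.31 from limma), the former -0.51 with the block.

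Immediate early genes, which the receptors are known to switch on through the cascade, were tested by 13 probes of a list of 16. Of these, 10 were higher with BM-MCs than in control SHPCs, 7 of them without overlap, where 13% of all probes were, and the median difference was 0.41. None passed in this comparison, and Jun and Myc had the lowest p, at 1.26 and 0.93 (adjusted p = 0.13 and 0.17 from limma). The lower ones were Egr1, Egr2 and Ier2, at -0.37, -0.046 and -0.013 (adjusted p = 0.59, 0.93 and 0.98 from limma). Fos, Fosb and Fosl1 were untested, being well above background on 0 arrays with complete marks. Whether the receptors acted on these genes was not tested. Nr4a1, an orphan nuclear receptor, was 2.73 higher in BM-MC SHPCs than in MHs and passed the threshold (adjusted p = 0.024 from limma). Its levels were -3.21 and -2.66 in MHs, -1.30, -1.30 and -1.11 in controls and -0.75, -0.11 and 0.26 with BM-MCs. All arrays of slide set 2 were above those of set 1 here too. The fit blocked on slide set gave 2.54, which no longer passed (adjusted p = 0.27 from limma). Between MHs and controls, Nr4a1 gave -1.70 (adjusted p = 0.051 from limma) and Egr1 -0.70 (adjusted p = 0.32 from limma).

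Among member probes without overlap between groups, 4 were higher and 0 lower with BM-MCs than in controls, where 13% and 11.6% of all probes were. In MHs against controls 2 were higher and 3 lower (background 22.7% and 18.7%), the higher being both Hgf probes and the lower Met, Erbb2 and Erbb3. In BM-MC SHPCs against MHs 5 were higher and 1 lower (background 16% and 16.3%), the higher being the 3 Egfr probes, Erbb3 and Hbegf. All BM-MC samples were in slide set 2 and all MHs in set 1. Of the 5, all but the variant Egfr probe were higher on all arrays of set 2 than on those of set 1. Their differences with the slide set as a block were -0.033 and 0.045 (Egfr), 0.087 (Erbb3) and -0.039 (Hbegf). Scaling each array to its median shifted all differences of BM-MC SHPCs by -0.19 against controls and by -0.20 against MHs, and no member's brightest probe changed its direction with it.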

How the data were processed

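Labelled RNA of 8 LMD samples (2 MH, 3 control SHPC and 3 BM-MC SHPC) was hybridised to 1-colour Agilent rat arrays. The authors deposited processed signals, an intensity from which Agilent Feature Extraction 10.7 (per the labels) had subtracted background, without scaling between arrays. The scanner file of control SHPC 2 stops after 20903 of 62976 features, so all signals were taken from the deposited value table, which matched the scanner files within a relative difference of 1.19e-06. Signals were set as log2 relative to the array's 75th percentile, outlier spots were left out and spots of a probe averaged. Probes marked well above background on 3 or more of the 7 complete arrays were tested with limma 3.58.1 (R 4.3.3) and Benjamini-Hochberg adjustment over 23111 probes, with the 6 SHPC samples for BM-MC against control and all 8 for the comparisons with MHs. The script was tested on simulated data. The number of arrays limits the precision.

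Members and gene lists were chosen with earlier results of these data known. Each member is named by its brightest tested probe, with its other probes. From each pathway list, the genes past the threshold are named (at most 4 per comparison) or, where none passed, the 2 with the lowest unadjusted p. The variant Egfr probe and the second Egfr and Hgf probes were singled out after their values were seen, as were the named genes of the cell marker lists, which are otherwise given by sums and counts. Gene positions and windows are RefSeq's (GRCr8). Alternatives were scaling, background correction, filters, floor, outlier spots, slide set, replicate number, intensity trend, samples in the fit, the methods' t-test and leaving out each sample. For genes with several tested probes, the median over these was a further alternative.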

Additional observations from a re-analysis of the deposited data

How the results depend on the processing

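The count of member probes past the threshold stayed at 0 for MHs against control SHPCs and for BM-MC SHPCs against MHs under all alternatives run. For BM-MC against control SHPCs it was 1 with limma's intensity trend and 2 with the methods' t-test, unadjusted (0 after Benjamini-Hochberg), and 0 to 1 with each sample left out, the variant Egfr probe passing without control SHPC 3 and the NM_031507 probe joining it in the unadjusted t-test. Without control SHPC 3, group and slide set coincided. With the replicate block the count was 0 in each comparison. Same-numbered samples of the SHPC groups correlated at 0.133, 0.078 and 0.171 in their deviations, and differently numbered ones at -0.154 to 0.082. Each BM-MC sample correlated best with the control of its number, whereas control SHPC 2 correlated best with BM-MC 1 (0.082). No source pairs the samples, so the numbers were not taken as pairs. Whether same-numbered samples shared an origin was not tested. Of 516 values of single genes and probes under an alternative, 486 kept direction and side of the threshold and 26 changed sign; the cause was not tested.

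The changes of sign in BM-MC against control SHPCs were Hbegf, at -0.026 with the background corrected anew and -0.082 with the slide set, and Erbb3, at -0.011 with the slide set; Erbb2 ran from -0.27 to 0.13 with each sample left out. In MHs against controls, Tgfa was at 0.031 with the slide set and 0.029 with the replicate block and from -0.22 to 0.17 with samples left out. The variant Egfr probe was at 0.0055 with quantile normalization, 0.12 with the background corrected anew, 0.016 with the floor and from -1.22 to 1.15 with samples left out, and the NM_031507 probe ran from -0.0056 to 0.26. In BM-MC SHPCs against MHs, the slide set gave -0.033 for Egfr, -0.039 for Hbegf, and 0.042 and 0.26 for the Hgf probes, the second of which was at 0.080 with the replicate block. Erbb2 was at -0.032 with the background corrected anew. With samples left out, Tgfa ran from -0.24 to 0.15 and the Hgf probes from -0.36 to 0.025 and from -0.27 to 0.11.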
